A study of Rattus norvegicus with 32 samples.

Results

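The iron handling genes described here are Hamp, Tf, Tfrc, Slc11a2, Steap4, Slc40a1, Fth1, Ftl1, Ireb2 and Aco1, 10 of the 34912 distinct gene names on the arrays. A probe belonged to a gene when it was not a control and carried that symbol in either annotation version of the scanner files, which gave 17 probes. Each gene is reported by its brightest probe over all arrays, and these 10 probes were well above background on all 32 arrays. The data are 1-colour Agilent arrays of the left ventricle of young adult Wistar rats, 1 rat per array, collected 20 h after surgery. In each sex there were 5 sham-operated rats, 5 rats with cecal ligation and puncture (CLP, a surgical model of abdominal sepsis), and 6 rats with CLP plus landiolol, a drug that blocks β1-adrenergic receptors for a short time. Landiolol was infused from shortly after CLP, the sham and CLP groups received saline, and buprenorphine was given to all groups for pain. All hearts, sham included, had been perfused ex vivo after imaging of the living animal before they were frozen, so the RNA is that of a perfused heart. The 2 slides of each sex held all groups of that sex, and sex cannot be told apart from slide.

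Hepcidin, the peptide encoded by Hamp, binds the iron exporter ferroportin (Slc40a1) and has it degraded, so that iron stays inside cells. It is best known as a liver hormone that rises in inflammation through interleukin 6 and STAT3 and with iron load through bone morphogenetic proteins and SMAD factors. Cells take up transferrin-bound iron through the transferrin receptor (Tfrc), reduce it with a STEAP reductase and move it into the cytosol through DMT1 (Slc11a2). Iron is stored in ferritin, built of a heavy chain (Fth1) and a light chain (Ftl1), and iron regulatory proteins (Aco1 and Ireb2) set Tfrc mRNA stability and ferritin translation by the iron supply of the cell.

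The upstream windows of Hamp and Steap4 are shown because these genes rose in both sexes. The windows hold the 250 bases before the start of the gene, from RefSeq on build GRCr8, written in the direction of transcription. That of Hamp is chr1:95300272-95300521 and that of Steap4 is chr4:27054770-27055019, both on the minus strand. Capitals mark GGCGCC, the core of the element through which bone morphogenetic proteins act on Hamp, and TTCNNNGAA, the letters of a STAT site.
Hamp window: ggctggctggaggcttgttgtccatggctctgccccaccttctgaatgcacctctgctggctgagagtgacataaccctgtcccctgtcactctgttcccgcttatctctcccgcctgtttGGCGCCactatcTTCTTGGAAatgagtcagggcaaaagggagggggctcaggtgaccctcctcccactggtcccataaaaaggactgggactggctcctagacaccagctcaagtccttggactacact
Steap4 window: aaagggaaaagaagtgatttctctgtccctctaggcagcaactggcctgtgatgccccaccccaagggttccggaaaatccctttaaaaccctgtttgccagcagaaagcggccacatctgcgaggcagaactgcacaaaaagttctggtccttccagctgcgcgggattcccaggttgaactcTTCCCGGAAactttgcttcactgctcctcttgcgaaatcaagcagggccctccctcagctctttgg

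Both motifs equal their own reverse complement, so both strands were searched, and the matches did not overlap. In Hamp, GGCGCC began 129 bases and TTCNNNGAA 117 bases before the start. In Steap4, TTCNNNGAA began 66 bases before the start. GGCGCC was in 8.69% and TTCNNNGAA in 7.67% of all 33469 windows of this length, and 0.379% held both. Upstream windows were at hand for 8 of the 10 genes, and GGCGCC was also in that of Tfrc, in which TTCNNNGAA was not found. A match is a description of the letters and not a measured site.

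After CLP, Hamp and Steap4 rose in both sexes, Ftl1 rose and Tfrc fell in males, and no iron gene was called for landiolol against CLP in either sex. In males 4 of 10 genes passed limma at an FDR of 1% for CLP vs sham, 3 higher and 1 lower, where 7.81% of all 25866 probes tested passed (3.88% higher and 3.94% lower). The groups did not overlap for 5 of the 10 and for 12.3% of all probes, and 6 of 10 had an unadjusted p under 0.05, against 28.8%. In females 2 of 10 passed for CLP vs sham, both higher, where 3.63% of 25395 probes passed (1.82% higher and 1.82% lower). Here 3 of 10 did not overlap, against 8.32% of probes, and 5 of 10 had an unadjusted p under 0.05, against 23.1%. The median log2 fold change over the 10 genes was 0.47 in males and 0.41 in females, and over all probes it was 0.0091 and -0.015. The 10 genes were chosen with earlier results of these data known and stand by their brightest probes, while the shares cover all probes tested. These rats are separate animals of each group, but fewer cells of a type and less RNA per cell cannot be told apart in such bulk samples.

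**Figure D1:**
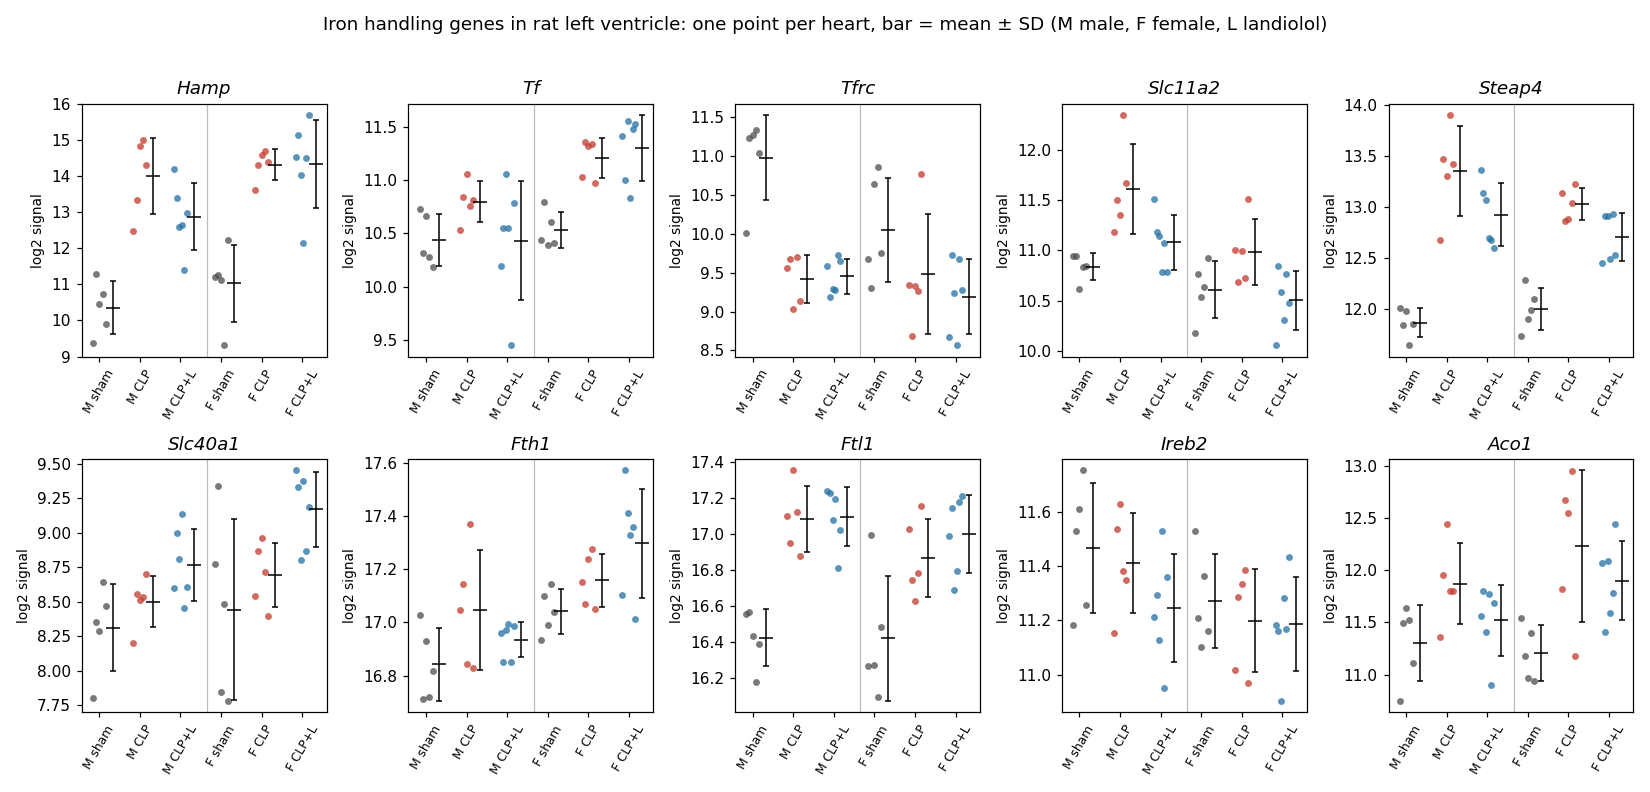
Log2 signal (vertical axes, each with its own range) of the 10 iron handling genes in the 6 groups (horizontal axes), with a point per heart and bars for the mean ± SD. Hamp and Steap4 lie above sham in all CLP hearts of both sexes, and Tfrc lies below sham in all male CLP hearts.

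Hamp was the iron gene with the largest change. In males the sham hearts had log2 signals of 9.38, 9.91, 10.46, 10.73 and 11.27, and the CLP hearts 12.48, 13.34, 14.31, 14.82 and 14.98. All CLP hearts lay above all sham hearts, with means of 13.99 ± 1.06 and 10.35 ± 0.73 (SD, n = 5 each). The log2 fold change was 3.64 (SE 0.53), a 12.4-fold rise (adjusted p = 0.000305, limma), and by size of change it ranked 35 among the 25866 probes. Within the male slides the difference was 3.22 and 4.28.

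In females the sham hearts had Hamp signals of 9.31, 11.13, 11.20, 11.27 and 12.24, and the CLP hearts 13.61, 14.30, 14.38, 14.58 and 14.69. The groups did not overlap. Hamp thereby rose 9.74-fold (log2 fold change 3.28, SE 0.57, adjusted p = 0.00198), with 2.97 and 3.90 within the slides. All female sham arrays lay in the first row of their slides and all female CLP plus landiolol arrays in the second, while CLP arrays lay in both. With the row as a term the log2 fold change was 3.13 and missed the FDR of 1% (adjusted p = 0.0157).

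The CLP plus landiolol hearts had Hamp signals from 11.41 to 14.19 (median 12.81, n = 6) in males and from 12.15 to 15.68 (median 14.51, n = 6) in females. In males the mean was 1.12 lower than in CLP on the log2 scale (log2 fold change -1.12, 95% interval -2.21 to -0.04), which did not pass after adjustment (adjusted p = 0.321). Within the male slides the difference was -0.16 and -2.30. The lowest treated male heart, replicate 5 at 11.41, was on the array with the lowest median spot signal of the series (49.2 before normalisation). A link between the 2 was not tested. Under the alternatives the male difference from CLP lay between -1.50 and -0.83 and never passed. In females the difference was 0.02 (95% interval -1.13 to 1.18, adjusted p = 0.997). The difference between the sexes, tested as an interaction, was 1.16 (SE 0.78, adjusted p = 0.968). In males the order of the means was CLP, CLP plus landiolol and sham, of which the first and second were not separated by the test, and in females both septic groups had higher means than sham.

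Against sham, Hamp stayed higher in CLP plus landiolol by 2.51 (SE 0.51, adjusted p = 0.00535) in males and by 3.31 (SE 0.54, adjusted p = 0.00108) in females. The male groups did not overlap, and the lowest treated female heart, at 12.15, lay below the highest sham heart, at 12.24. The male call was lost without the filter on dim probes (adjusted p = 0.0123) and when any of 8 single arrays was left out, namely sham replicates 1, 3, 4 and 5 and CLP plus landiolol replicates 1, 2, 3 and 6, with adjusted p up to 0.0165. The female call was lost with the slide row as a term (2.93, adjusted p = 0.314).

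Markers of other cells that could bring Hamp RNA were read on the same arrays. Of 7 hepatocyte markers, 5 were not well above background on most arrays, and Alb, which encodes albumin, and Serpina1 were well above background on 0 of 32. The other 2, Ttr and Ahsg, were well above background on every array and were not called in any comparison, with CLP vs sham changes of 0.12 and 0.29 in males and 0.30 and 0.15 in females. The summed hepatocyte marker level ranged from 13.24 to 13.65 in male sham and from 13.34 to 13.72 in male CLP hearts, and from 13.12 to 13.43 and from 13.28 to 13.77 in females. This sum is mostly Ttr (12.56 to 13.55 over all arrays), with Ahsg at 10.21 to 11.79. The dim markers reached at most 5.42, so the sum cannot show their changes. None of the 3 atrial myocyte markers tested passed, and the fourth, Bmp10, was well above background on 0 of 32 arrays.

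Some macrophage and neutrophil markers rose with CLP. Of 7 macrophage and monocyte markers tested, 3 were called higher in males (Adgre1, Cd68 and Itgam), where 3.88% of all probes were. In females 2 were (Adgre1 and Cd68), where 1.82% of all probes were. In each sex the other markers were not called. Their changes ran from -0.07 (Csf1r) to 0.85 (Cd14) in males and from -0.01 (Csf1r) to 1.49 (Itgam) in females. The summed level went from 13.07 ± 0.22 to 13.71 ± 0.20 in males and from 13.05 ± 0.13 to 13.58 ± 0.18 in females (SD, n = 5). Of 5 neutrophil markers 2 passed the filter on dim probes, which a probe can pass through the group where it is high. S100a8 was well above background on 23 of 32 arrays (range 2.11 to 9.08) and S100a9 on 27 of 32 (range 3.14 to 9.02). The size of their changes is therefore uncertain. S100a8 rose by 4.18 in males (adjusted p = 2.69e-05) and by 4.15 in females (adjusted p = 0.00019). S100a9 rose by 2.50 in males (adjusted p = 0.00235), and its change of 1.95 in females did not pass (adjusted p = 0.0329, limma). The summed neutrophil level, over 5 markers, ranged from 5.29 to 5.73 in sham and from 7.09 to 9.64 in CLP males, and from 5.08 to 6.20 and 7.42 to 8.82 in females, and Mmp8 was well above background on 0 of 32 arrays. The summed level of 8 cardiomyocyte markers was 20.86 ± 0.08 in sham and 20.84 ± 0.06 in CLP males, and 21.00 ± 0.06 and 21.02 ± 0.06 in females. The part of these cells in the changes of Hamp, Steap4 and Ftl1 was not tested.

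**Figure D2:**
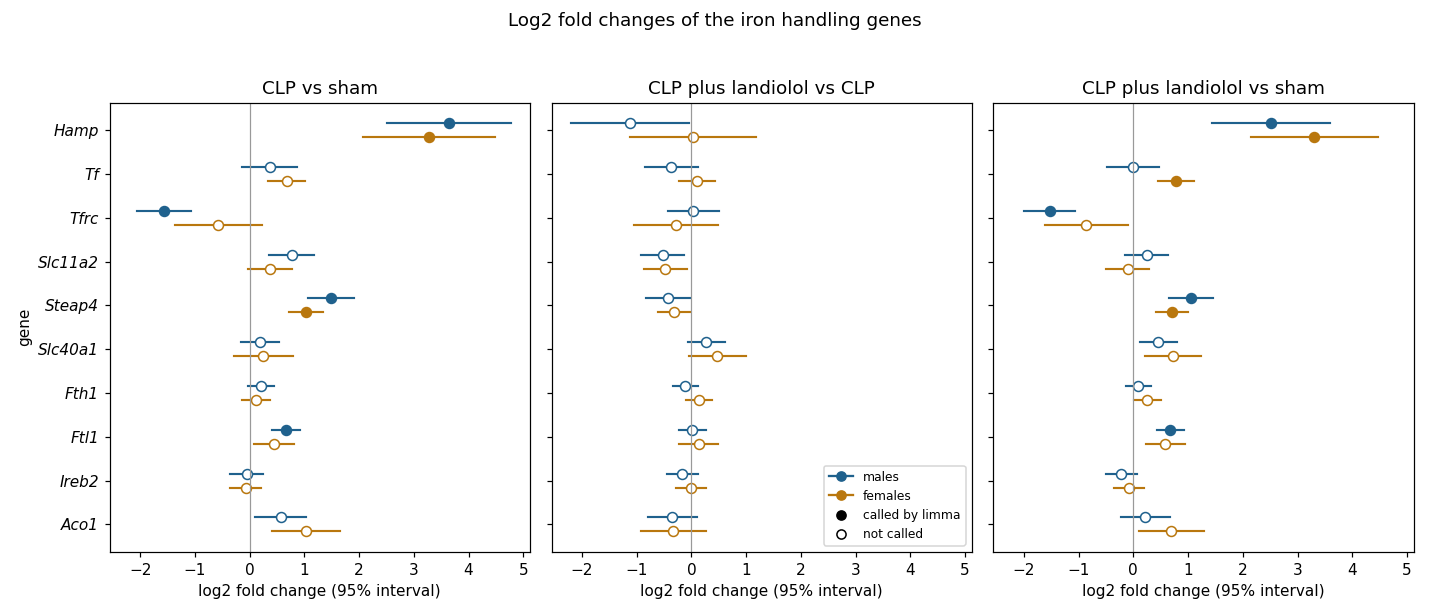
Log2 fold changes with 95% intervals (horizontal axes) of the 10 genes (vertical axis) in the 3 comparisons, males in blue and females in orange. Filled points passed limma, at an FDR of 1% against sham and of 5% against CLP, and no point is filled in the comparison of CLP plus landiolol with CLP.

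Transferrin (Tf), the carrier of iron in plasma, was read by a probe at chr8:108219377-108219436 (rn4, minus strand). In females the sham hearts had 10.39, 10.41, 10.44, 10.60 and 10.79, and the CLP hearts 10.97, 11.03, 11.33, 11.34 and 11.36. Sham and CLP values did not overlap. Their difference of 0.68 (SE 0.16) missed the FDR of 1% (adjusted p = 0.0148), and it passed with SAM, the normexp background (adjusted p = 0.00694), array weights (adjusted p = 0.00592) or without CLP plus landiolol replicate 4 (adjusted p = 0.00755). In females with CLP plus landiolol Tf was between 10.83 and 11.56 (median 11.45, n = 6), higher than in sham by 0.78 (SE 0.15, adjusted p = 0.00384). That call was lost with the slide row as a term (adjusted p = 0.293) and without any of sham replicates 1, 3 and 5 or CLP plus landiolol replicates 3, 5 and 6 (adjusted p up to 0.0127). In males Tf differed from sham by 0.37 after CLP and by -0.0023 with landiolol, with adjusted p of 0.343 and 0.998. The lowest treated male heart, replicate 5 at 9.44 (next 10.20), was on the array with the lowest median spot signal of the series (49.2), and a link was not tested. Under the alternatives the male change with landiolol from sham lay between -0.13 and 0.20 and never passed.

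Tfrc, the receptor for that carrier, fell in septic males (probe at chr11:69976628-69976687, rn4, minus strand). The sham males had 10.02, 11.05, 11.23, 11.27 and 11.34, and the CLP males 9.04, 9.13, 9.56, 9.67 and 9.70. The groups did not overlap, although 1 sham heart, replicate 1, stood well below the others. The log2 fold change was -1.56 (SE 0.23, adjusted p = 0.000313), with -1.20 and -1.81 within the slides, and -1.80 without the lowest sham heart. In CLP plus landiolol males Tfrc was between 9.19 and 9.73 (median 9.44, n = 6). It differed from CLP by 0.03 (95% interval -0.43 to 0.50, adjusted p = 0.952) and from sham by -1.53 (adjusted p = 0.000452).

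In females Tfrc overlapped between the groups. The sham hearts had 9.31, 9.67, 9.76, 10.65 and 10.87, and the CLP hearts 8.68, 9.27, 9.32, 9.35 and 10.77. A single CLP heart, replicate 5, lay among the highest sham hearts, and its array had the lowest median spot signal of the group (69.6). Whether that signal bears on the value of this heart was not tested. The log2 fold change was -0.57 (SE 0.38, adjusted p = 0.405) with this heart and -0.89 without it (adjusted p = 0.103). With landiolol the range was 8.56 to 9.73, and the change from sham was -0.86 (adjusted p = 0.138). The interaction of sex with CLP was 0.96 (95% interval 0.02 to 1.90), which did not pass in limma over all probes (adjusted p = 0.9999), so a difference between the sexes was not shown.

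Steap4, a membrane reductase of the STEAP family that turns ferric into ferrous iron, rose in both sexes (probe at chr4:22688668-22688727, rn4, minus strand). The sham males had 11.64, 11.84, 11.85, 11.98 and 12.00, and the CLP males 12.67, 13.31, 13.42, 13.47 and 13.90. The sham females had 11.73, 11.90, 11.98, 12.09 and 12.28, and the CLP females 12.86, 12.88, 13.04, 13.13 and 13.22. Neither pair of groups overlapped. The rise was 2.81-fold in males (log2 fold change 1.49, SE 0.20, adjusted p = 0.000144) and 2.05-fold in females (log2 fold change 1.03, SE 0.15, adjusted p = 0.000462). Within slides it was 1.23 and 1.84 in males and 1.04 and 0.95 in females.

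With landiolol Steap4 was between 12.60 and 13.36 (median 12.88, n = 6) in males and between 12.45 and 12.93 (median 12.72, n = 6) in females. These means were 0.43 and 0.33 below CLP on the log2 scale (log2 fold changes -0.43 and -0.33, adjusted p = 0.305 and 0.476). Within the male slides this difference was 0.04 and -1.004. Both sexes remained above sham, by 1.06 in males (adjusted p = 0.00239) and by 0.71 in females (adjusted p = 0.00357), and the groups did not overlap. The female call was lost with the row as a term (adjusted p = 0.524) and without sham replicates 1 or 3 or CLP plus landiolol replicates 3 or 5 (adjusted p up to 0.0125). A second Steap4 probe, named so only in the female files, was dim, with group means between 4.59 and 5.13 in females, and its change of 0.54 after CLP did not pass (adjusted p = 0.301). In males it did not pass the filter on dim probes.

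Slc11a2, which encodes the ferrous iron transporter DMT1, had 2 probes of identical sequence at chr7:139094505-139094564 (rn4, minus strand), the second of which changed by 0.76 in males and 0.38 in females after CLP. The sham males had 10.62, 10.84, 10.84, 10.94 and 10.95, and the CLP males 11.18, 11.35, 11.50, 11.66 and 12.34. The groups did not overlap. The log2 fold change of 0.77 (SE 0.19) just missed the FDR of 1% (adjusted p = 0.0122), and it passed with SAM, the normexp background, a trended prior, array weights or without CLP replicate 1 (adjusted p = 0.00559). In females the change was 0.37 (adjusted p = 0.264). With landiolol Slc11a2 was lower than in CLP by 0.53 in males and 0.48 in females (log2 fold changes -0.53 and -0.48). Neither passed over all probes (adjusted p = 0.182 and 0.411), and within the male slides the difference was -0.07 and -1.12.

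Slc40a1, which encodes ferroportin, the iron exporter and hepcidin target, was not called (probe at chr9:44978571-44978630, rn4, minus strand). Its sham values ranged from 7.80 to 8.65 in males and from 7.78 to 9.34 in females, and its CLP values from 8.20 to 8.70 and from 8.40 to 8.96. The CLP vs sham changes were 0.19 and 0.25 (adjusted p = 0.515 and 0.614). On the brightest probe the means were highest with landiolol in both sexes, at 8.77 ± 0.26 and 9.17 ± 0.27 (SD, n = 6), and the changes from sham were 0.45 and 0.73 (adjusted p = 0.0849 and 0.0622). The second probe had changes of -0.16 in males and 0.19 in females for CLP vs sham, so its direction in males was the opposite, and neither passed. Its changes from sham with landiolol were 0.00072 in males (adjusted p = 0.9996) and 0.66 in females (adjusted p = 0.0572), so the 2 probes differed in males.

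Ftl1, the ferritin light chain, rose in males (probe at chr1:95929253-95929312, rn4, minus strand). The sham males had 16.17, 16.38, 16.43, 16.56 and 16.57, and the CLP males 16.88, 16.95, 17.10, 17.12 and 17.35. The groups did not overlap, and the rise was 1.58-fold (log2 fold change 0.66, SE 0.12, adjusted p = 0.00165), with 0.57 and 0.67 within the slides. With landiolol it was between 16.81 and 17.24, which was 0.67 above sham (adjusted p = 0.00171) and 0.01 from CLP (95% interval -0.23 to 0.26). In females the change was 0.45 after CLP (adjusted p = 0.125) and 0.58 with landiolol against sham (adjusted p = 0.0314). Sham replicate 2, at 16.99, was the highest female sham heart, and without it the second of these passed (0.72, adjusted p = 0.00663). Under the alternatives this second change lay between 0.41 and 0.72 and passed in 2 of 30.

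Ftl1 has close copies in the rat genome, and the arrays may not separate them. The 2 probes share 53 of their 60 bases, and the male files place the second on chromosome 13 where the female files place it on chromosome 1. Both probes were called in males. Fth1, the heavy chain, has 2 probes placed on nearly the same stretch, with a longest shared run of 19 bases. The brightest is at chr1:212432648-212432709 and the other at chr1:212432641-212432701 (rn4, plus strand). On the brightest the CLP vs sham changes were 0.20 (95% interval -0.04 to 0.44) in males and 0.12 (95% interval -0.14 to 0.37) in females. Neither passed (adjusted p = 0.26 and 0.623, limma). No spot of the arrays was saturated.

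The iron regulatory proteins were read by probes at chr5:57591506-57591565 (Aco1) and chr8:58479548-58479607 (Ireb2), both rn4 and plus strand. Aco1, which encodes an enzyme that is a cytosolic aconitase when it holds an iron-sulphur cluster and binds RNA when it does not, had 10.94, 10.97, 11.18, 11.40 and 11.55 in sham females and 11.17, 11.82, 12.54, 12.67 and 12.95 in CLP females. The groups overlapped through CLP replicate 5 alone, the heart that also had the highest Tfrc of its group. The change was 1.03 (SE 0.29, adjusted p = 0.0367), and 1.29 without that heart, which passed (adjusted p = 0.00421). Under the alternatives it lay between 0.85 and 1.29 and passed in 3 of 30. The array of CLP replicate 5 had the lowest median spot signal of the female CLP group (69.6, highest 156.5), and a link with its Aco1 value was not tested. In males the change was 0.57 (adjusted p = 0.0977). Ireb2 changed by -0.06 in males (95% interval -0.35 to 0.24) and -0.07 in females (95% interval -0.36 to 0.21), and its 2 other probes were not called in any comparison.

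**Figure D3:**
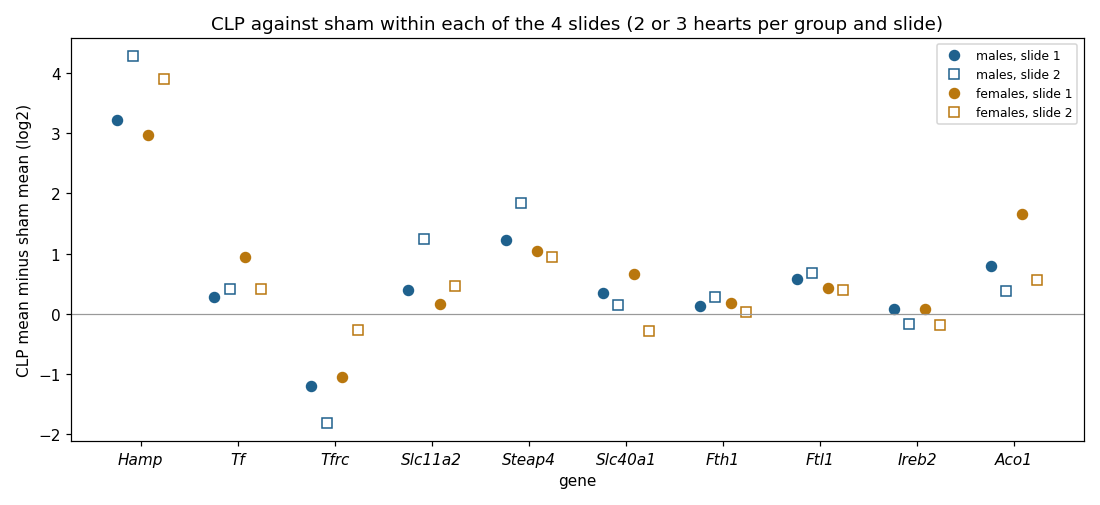
Difference of the CLP and sham means (vertical axis, log2) within each of the 4 slides for the 10 genes (horizontal axis), with 2 or 3 hearts per group and slide. Hamp, Tf, Slc11a2, Steap4, Fth1, Ftl1 and Aco1 lie above 0 and Tfrc below 0 on all 4 slides, while Ireb2, and Slc40a1 in females, lie on both sides of 0.

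For CLP plus landiolol vs CLP, 0 of 10 genes passed limma at an FDR of 5% in males, where 1.56% of probes passed (0.804% higher and 0.758% lower). An unadjusted p under 0.05 was found for 3 of 10 (Hamp, Slc11a2 and Steap4, all lower) and for 14.8% of probes, and the groups did not overlap for 0 of 10 and 2.27% of probes. In females 0 of 10 passed, where 0.0945% of probes passed (0.0512% higher and 0.0433% lower). An unadjusted p under 0.05 was found for 2 of 10 (Slc11a2 and Steap4, both lower) and for 9.34% of probes, and the groups did not overlap for 0 of 10 and 1.15% of probes. SAM, the test of the study run here with 100 permutations, also called 0 in each sex. The count over all probes moved with single arrays: in males it was 404, 124 without CLP replicate 4 and 1022 without CLP replicate 1, and in females it was 24, 129 without CLP replicate 5 and 0 without any of CLP replicates 3 and 4 and CLP plus landiolol replicates 1, 2 and 5. For CLP plus landiolol vs sham, 4 of 10 passed in males (Hamp, Steap4, Ftl1 and Tfrc), where 4.15% of probes passed (2.4% higher and 1.76% lower), and 3 of 10 in females (Hamp, Tf and Steap4), where 5.25% passed (3% higher and 2.24% lower). The groups did not overlap for 4 of 10 in males, against 7.79% of probes, and 2 of 10 in females, against 9.74%. An unadjusted p under 0.05 was found for 5 of 10 in males, against 24.2% of probes, and 8 of 10 in females, against 26.7%. In the female comparison 0 of 10 passed once the slide row was a term, when the count over all 25395 probes fell from 1332 to 20. This comparison shares its sham hearts with CLP vs sham and its treated hearts with the comparison above.

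Interactions of sex with each contrast were fitted on the 32 arrays normalised together. None of the 10 genes, and 0% of the 26492 probes, passed at an FDR of 5% in any of the 3 interactions. The number of probes with an unadjusted p under 0.05 was 995, 1307 and 1669 (3.76%, 4.93% and 6.3%). With the log2 table of the authors 10, 0 and 5 of 24781 probes passed, and none of them was an iron gene. A call in males and not in females, as for Tfrc and Ftl1, is therefore not a shown difference between the sexes.

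Other iron and haem genes were read from 9 lists. Of 100 such genes tested in males, 10 rose and 5 fell after CLP (15%, where 7.81% of all probes passed), and of 99 in females 4 rose and 2 fell (6.06%, where 3.63% of all probes passed). Their median log2 fold change was 0.05 and 0.03. For CLP plus landiolol vs CLP, 2 were higher and 4 lower in males (6%, where 1.56% of all probes passed), and 0 passed in females, where 0.0945% of all probes passed. The shares over all probes called in each direction were 3.88% higher and 3.94% lower in males and 1.82% each way in females for CLP vs sham. They are not a like comparison for the lists. The lists were chosen with earlier results of these data known, and each gene stands by its brightest probe. Altogether 17 genes passed in at least 1 comparison.

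In the list on the control of hepcidin, 4 of 25 genes tested in males rose after CLP, where 3.88% of all probes did, and 0 fell, with a list median of 0.05. They were Stat3 (1.59, adjusted p = 3.1e-05), Il6r, the interleukin 6 receptor (1.56), Smad1 (1.15) and Il6st, the signalling subunit gp130 (0.83). In females 1 of 25 rose, where 1.82% of all probes did, Stat3 (1.06, adjusted p = 0.00157), with a list median of -0.05. With landiolol 2 of 25 were lower than in CLP in males, where 0.758% of all probes were, Il6r (-1.38) and Stat3 (-0.82). In females 0 of 25 were lower, where 0.0433% of all probes were, and the same genes differed by -0.92 and -0.29.

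Among genes that bind haem, haemoglobin or siderophores, 4 of 7 were bright enough to test, and 2 of 4 rose in each sex after CLP, where 3.88% of all probes in males and 1.82% in females did. Lcn2, lipocalin 2, which binds bacterial siderophores, rose by 5.10 in males and 3.82 in females. Lrp1, the receptor for haem bound to haemopexin, rose by 1.09 and 1.15. Lcn2 was lower with landiolol than with CLP in males (log2 fold change -1.53, adjusted p = 0.0313), and the change of -0.83 in females did not pass (adjusted p = 0.539).

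Of 12 genes of haem breakdown and transport, Hmox1, the inducible haem oxygenase that frees iron from haem, rose by 2.91 in males and 3.16 in females after CLP. With landiolol it was lower than in CLP in males (-1.75, adjusted p = 0.00484), and the change of -1.29 in females did not pass (adjusted p = 0.297). Flvcr2, a membrane transporter, fell in males (-1.75). Of 8 genes of haem synthesis, Alas1, the first enzyme of the pathway outside red cells, fell by 1.60 in males and by 1.85 in females on the log2 scale (log2 fold changes -1.60 and -1.85). Alad, the next enzyme, fell in males (-0.59) and changed by -0.42 in females without passing.

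**Figure D4:**
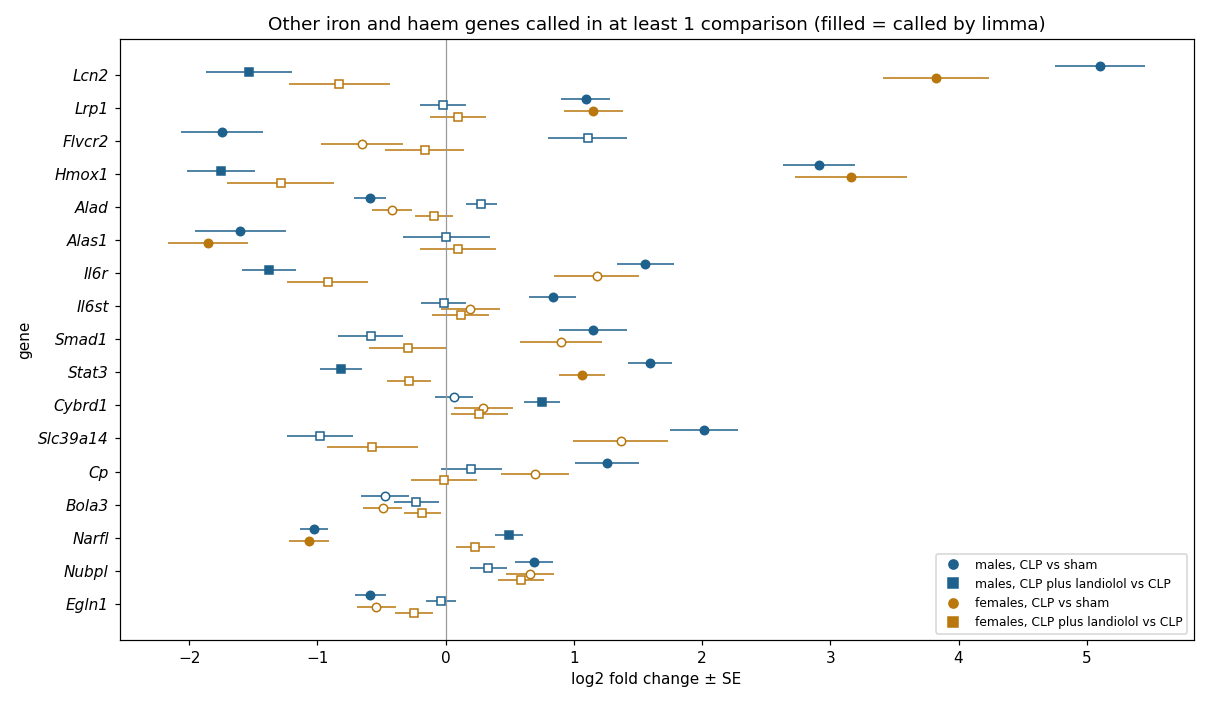
Log2 fold changes ± SE (horizontal axis) of the 17 other iron and haem genes called in at least 1 comparison (vertical axis), males in blue and females in orange, circles for CLP vs sham and squares for CLP plus landiolol vs CLP. Filled points passed limma. Bola3 has no filled point because it passed only in CLP plus landiolol vs sham, which is not drawn.

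In the list of iron entry and reduction, 1 of 9 passed after CLP in males, where 7.81% of all probes did, Slc39a14, a transporter of zinc and non-transferrin iron (2.01), and 0 of 9 in females, where it changed by 1.37. Cybrd1, a ferric reductase, changed little after CLP in males (0.06) and was higher with landiolol than with CLP (0.75, adjusted p = 0.0140). Of 5 genes of export and ferroxidases, Cp, ceruloplasmin, rose in males by 1.26. No gene of ferritin turnover passed in any comparison (6 tested in males and 5 in females).

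Of 26 genes of mitochondrial iron and iron-sulphur cluster assembly, Narfl, a cytosolic assembly factor, fell in males (-1.03) and females (-1.06), and was higher with landiolol than with CLP in males (0.49, adjusted p = 0.0313). Nubpl, an assembly factor for complex I, rose in males (0.69) and with landiolol against sham in females (1.24), and Bola3 fell in females with landiolol against sham (-0.67). Of 7 genes of oxygen sensing, Egln1, a prolyl hydroxylase that uses iron, fell after CLP in males (-0.59). It was also called lower with landiolol against sham in both sexes.

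The genes whose pattern was most like a called member were found as the smallest Euclidean distance over 4 values, the changes of CLP and of CLP plus landiolol from sham in each sex, among 13074 other named genes. For Hamp they were Fhdc1 (distance 0.76) and Mmp24 (0.81), for Tfrc Il4i1 (0.18) and Gap43 (0.25), and for Steap4 a long non-coding RNA, LOC103692427 (0.14), and Gpr176 (0.20). For Ftl1 they were LOC100360087 (0.07), which carries Ftl1 as an older name in the RefSeq table, and Ripor2 (0.08). Distances grow with the size of the change.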

How the data were processed

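For each array the authors deposited Agilent Feature Extraction 10.5 output, with background-subtracted intensity, mean and background intensity and quality marks per spot, and, for the whole series, log2 values that they had quantile-normalised and filtered. Here the processed intensities were put on the log2 scale without outlier spots, spots of 1 probe were averaged, and quantile normalisation was run over the 16 arrays of each sex. A probe was kept if 80% or more of the arrays in any group had it well above background. Between 34920 and 43155 spots per array were well above background, and the number of arrays limits the precision.

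The test was limma 3.58.1 (R 4.3.3) on 16 arrays per sex, with Benjamini-Hochberg adjustment over the probes kept. The FDR was 1% for comparisons with sham and 5% for landiolol against CLP. Sex differences were interactions over 32 arrays at 5%. Fits were tested on simulated data, and figures were drawn with Python 3.11.15 and matplotlib 3.10.9. Each array is a separate rat, numbered in accession order. Coordinates are on rn4 as the scanner files give them, and exons were not looked up. A gene stands by its brightest probe. All 10 genes are named, other list genes when called, and the 2 nearest patterns of each member called for CLP vs sham in either sex. The members, gene lists and markers were chosen with earlier results of these data known. Summed marker levels are log2 of summed linear signals. Alternatives were 75th percentile scaling, normexp with an offset of 50, other filters, fits of the compared groups alone, slide or slide row as a term, normalisation of both sexes together, the log2 values of the authors (any offset before the log2 is not given in the sources used here), a trended prior, array weights, exchanged FDR levels, SAM with 100 permutations, any probe of a gene, and each array left out of the fit with normalised values and probes unchanged.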

Additional observations from a re-analysis of the deposited data

Results flagged for a closer look

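Of 60 groups of 5 or 6 hearts (10 genes in 6 groups), 1 had a heart whose gap to the next was large for its range. It was Tfrc in the male sham group, where replicate 1 had a log2 signal of 10.02 and the next lowest heart 11.05. Chance alone flags about 1 in 20 groups. Without this heart the male CLP vs sham change of Tfrc was -1.80 (adjusted p = 1.44e-05, limma). No sex difference of an iron gene passed, and for 0 of the 10 genes in each comparison did all hearts of one sex move against all hearts of the other.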

How the results depend on the processing

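All 13 calls of an iron gene kept their direction under every alternative run. In CLP vs sham in males, Hamp, Tfrc, Steap4 and Ftl1 passed under all 12 other settings and all 16 arrays left out in turn, with 4 to 5 genes called in the latter. The count in females was 2 for CLP vs sham and changed to 1 with the slide row as a term, to 3 with the normexp background or SAM, to 4 with array weights and to 4 with exchanged FDR levels, and it was 2 to 3 with an array left out. For CLP plus landiolol vs sham in females it was 3, 0 with the row as a term, and 1 to 4 with an array left out, being 1 without sham replicate 1 or 3 or without CLP plus landiolol replicate 3 or 5. Over all probes the row term took the female counts from 923 to 337 for CLP vs sham, from 24 to 1 for landiolol vs CLP and from 1332 to 20 for landiolol vs sham. Sham and treated females share no row, and the causes were not tested. In males CLP plus landiolol vs sham gave 3 to 4 with an array left out. The landiolol comparisons with CLP and the sex differences gave 0 throughout. SAM called 986 probes against 404 by limma for landiolol vs CLP and 1724 against 1074 for landiolol vs sham in males, and 1483 against 923 (CLP vs sham), 81 against 24 and 2615 against 1332 in females. Array weights gave 3341 against 2021 for CLP vs sham, 1388 and 2088 for the landiolol comparisons with CLP and sham in males, and 233 and 2318 in females. Fits of the compared groups alone gave 163 for landiolol vs CLP in males, and 538 (CLP vs sham) and 2 (landiolol vs CLP) in females. For landiolol vs CLP no filter gave 246 in males and 5 in females, where 75th percentile scaling gave 7, the filter over all arrays 9 and joint normalisation 11. At the exchanged FDR levels the 3 counts, in the order CLP vs sham, landiolol vs CLP and landiolol vs sham, were 4134, 86 and 2538 in males and 2329, 0 and 3243 in females. With an array left out, landiolol vs CLP ranged from 124 to 1022 in males and from 0 to 129 in females. The other comparisons moved by over 1.5 times without male CLP replicate 4 (1312 for CLP vs sham), without male sham replicates 2, 3 or 4 (664, 696 and 633 for landiolol vs sham), without female sham replicates 1 or 5 or CLP replicate 3 (583, 605 and 610 for CLP vs sham), and without female sham replicate 1 (886 for landiolol vs sham). With array weights 6 probes, and with the normexp background 2, none of an iron gene, differed between the sexes for CLP plus landiolol vs sham. No paired analysis was run because each array is a separate rat. No depth applies to arrays, and every brightest probe was well above background.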

Other observations

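Red cell markers differed among the hearts, which had all been perfused. In female CLP replicate 4 the haemoglobin gene Hba1 had a log2 signal of 16.72 and Alas2, the red cell enzyme of haem synthesis, 9.39, where the other 4 hearts of that group had Hba1 from 10.73 to 13.48 and Alas2 from 2.51 to 5.49. Its Tfrc was 9.27. Slc4a1, which encodes the red cell anion exchanger band 3, was 7.43 in that heart and from 6.30 to 8.36 in the other 4. It fell after CLP in males (log2 fold change -3.25, adjusted p = 2.9e-05, limma) and in females (log2 fold change -2.96, adjusted p = 0.000802). No haemoglobin gene tested was called. Hba1 changed by -0.02 in males and 1.65 in females, Hba2 by 0.17 and 2.36, and Hbb by 2.60 in females. Hba1 was well above background on all 32 arrays, Hba2 on 23 and Hbb on 20, so the changes of Hba2 and Hbb are uncertain in size. Female CLP replicate 4 also had the highest Hba2 (12.20) and Hbb (11.12) of all hearts. Whether the fall of Slc4a1 reflects red cell content was not tested.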
